A study of Mus musculus with 8 samples.

Results

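The genes of DNA replication and mitosis were compared across 4 mouse tumor cell lines. The set held 49 genes, chosen by symbol as common markers and regulators of proliferation, out of 18768 genes in the count table. The table held all 49, and each passed edgeR's count filter, so 49 of the 15153 genes tested were members. By role they fell into 9 regulators of the G1/S step, 12 genes of replication licensing and the fork, 4 genes of deoxynucleotide supply, 9 genes of the entry into mitosis, and 15 genes of chromosomes, spindle and checkpoint.

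RNA from cultured cells was sequenced in 8 libraries, 2 from each line. MC010 and MC011, labelled IRF8 KO, came from tumors of mice with a knockout of IRF8, a transcription factor of the interferon regulatory factor family. MC654 and MC659, labelled WT, came from tumors of wild-type C57BL/6 mice. All 4 lines share the carcinogen, methylcholanthrene (MCA) injected under the skin about 3 months before the tumors were taken, the diagnosis of fibrosarcoma, and growth of at least 10 passages before RNA was taken. Each line is 1 tumor, so a label stands for 2 lines, and no source states that the 2 libraries of a line came from separate cultures. P-values over libraries therefore measure the spread between these libraries, and taken by line, an exact test of 2 against 2 cannot give a p below 0.333.

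Cells enter S phase when cyclin E with Cdk2 and the activating E2F factors switch on the genes of DNA synthesis. Licensing loads the MCM helicase onto origins with the help of Cdc6 and Cdt1, and geminin (Gmnn) blocks a repeat of this step. Later in the cycle, cyclin A, cyclin B with Cdk1, and the factors FoxM1 and B-Myb drive the genes of chromosome segregation and cytokinesis. In a cell population, a higher share of cycling cells and more RNA per cycling cell cannot be told apart from bulk RNA.

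The promoters of these genes share short elements. E2F elements bind E2F factors at genes of S phase, the cell cycle homology region (CHR) recruits the MuvB complex to late genes, and CCAAT boxes bind NF-Y. RefSeq promoter windows, from 250 bases before to 50 after the start of transcription, were found for 39 of the 49 members. No window was found for Aurkb, Ccna2, Ccne2, Cdc25c, Foxm1, Gins1, Gins2, Gmnn, Kif20a and Mcm4. A canonical E2F element, searched on both strands as TTTCCCGC, TTTGGCGC, TTTCGCGC or TTTGCCGC, was in the windows of 11 of the 39 members (28.2%) and of 2.60% of the 27025 genes with a window. The core of the CHR, TTTGAA or TTCGAA, was in those of 19 members (48.7%) against 21.7% of all genes. A CCAAT box was in those of 30 members (76.9%) against 41.1%. A letter match is a description and not a site shown to be bound. The E2F letters were in 6 of 8 licensing and fork genes and 4 of 8 G1/S regulators, against 0 of 4 genes of deoxynucleotide supply, 1 of 6 genes of the entry into mitosis and 0 of 13 genes of chromosomes, spindle and checkpoint. The CHR letters lay with the late stages, in 10 of those 13 and in 5 of 6 genes of the entry into mitosis, against 2 of 8 licensing and fork genes, 2 of 8 G1/S regulators and 0 of 4 genes of deoxynucleotide supply. The 6 windows below belong to members whose levels differed between the lines, with E2F, CHR and CCAAT matches in capitals on either strand.
E2f2 (GRCm38.p6, chr4:136172024-136172323, plus strand): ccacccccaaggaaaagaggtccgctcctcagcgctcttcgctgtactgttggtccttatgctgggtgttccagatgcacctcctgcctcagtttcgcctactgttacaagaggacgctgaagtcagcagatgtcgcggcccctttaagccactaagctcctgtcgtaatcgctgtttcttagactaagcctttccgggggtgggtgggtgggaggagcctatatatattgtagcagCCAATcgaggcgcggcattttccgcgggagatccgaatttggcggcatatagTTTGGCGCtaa
Mcm5 (GRCm38.p6, chr8:75109259-75109558, plus strand): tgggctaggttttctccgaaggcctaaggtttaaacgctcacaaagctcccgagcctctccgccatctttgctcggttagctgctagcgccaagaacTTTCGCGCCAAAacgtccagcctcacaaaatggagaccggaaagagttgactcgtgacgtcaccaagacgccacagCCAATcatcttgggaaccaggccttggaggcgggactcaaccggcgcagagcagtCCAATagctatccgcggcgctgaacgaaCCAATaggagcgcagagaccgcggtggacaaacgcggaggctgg
Rrm2 (GRCm38.p6, chr12:24708004-24708303, plus strand): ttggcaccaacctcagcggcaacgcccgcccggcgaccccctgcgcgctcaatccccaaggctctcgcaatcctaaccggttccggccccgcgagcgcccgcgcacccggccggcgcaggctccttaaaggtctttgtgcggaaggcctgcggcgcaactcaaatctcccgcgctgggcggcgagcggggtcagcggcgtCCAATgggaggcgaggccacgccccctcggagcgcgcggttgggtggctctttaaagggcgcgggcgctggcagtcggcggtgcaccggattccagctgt
Top2a (GRCm38.p6, chr11:99024140-99024439, minus strand): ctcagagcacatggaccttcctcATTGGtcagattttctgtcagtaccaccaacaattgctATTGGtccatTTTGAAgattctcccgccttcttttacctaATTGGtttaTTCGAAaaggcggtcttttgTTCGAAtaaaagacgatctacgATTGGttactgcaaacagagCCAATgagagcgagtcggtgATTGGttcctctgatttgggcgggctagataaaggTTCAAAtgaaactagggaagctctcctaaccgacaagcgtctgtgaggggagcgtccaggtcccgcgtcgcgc
Kif23 (GRCm38.p6, chr9:61946750-61947049, minus strand): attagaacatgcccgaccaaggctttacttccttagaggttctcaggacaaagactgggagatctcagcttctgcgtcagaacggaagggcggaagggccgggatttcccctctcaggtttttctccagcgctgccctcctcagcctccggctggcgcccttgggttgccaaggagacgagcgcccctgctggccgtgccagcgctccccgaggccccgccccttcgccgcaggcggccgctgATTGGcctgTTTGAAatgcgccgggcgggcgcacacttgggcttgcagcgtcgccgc
Ccnb2 (GRCm38.p6, chr9:70421505-70421804, minus strand): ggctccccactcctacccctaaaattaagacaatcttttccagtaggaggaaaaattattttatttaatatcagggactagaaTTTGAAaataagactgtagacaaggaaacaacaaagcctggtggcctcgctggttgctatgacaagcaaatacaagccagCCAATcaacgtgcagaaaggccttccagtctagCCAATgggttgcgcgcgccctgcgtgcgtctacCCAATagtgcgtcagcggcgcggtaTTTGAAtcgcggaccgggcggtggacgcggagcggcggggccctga
E2f2 and Mcm5 held both E2F and CCAAT letters, Top2a, Kif23 and Ccnb2 held both CHR and CCAAT letters, and Rrm2 held a CCAAT box alone. Top2a had the most, with 4 CHR and 6 CCAAT matches in 300 bases. Another window of E2f2 (chr4:136180532-136180831), not printed, held 1 CHR and 3 CCAAT matches and no E2F letters.

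**Figure D1:**
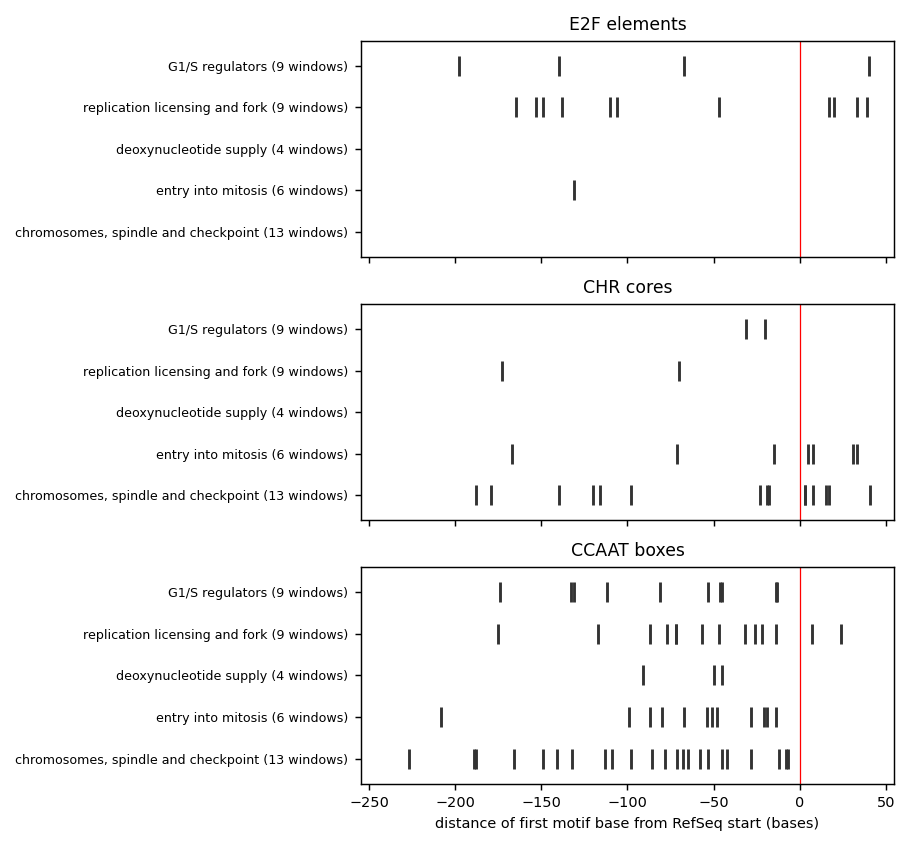
Positions of E2F elements, CHR cores and CCAAT boxes in the promoter windows of the members, by role. Each tick is the first base of 1 match, the x axis is its distance in bases from the RefSeq start (red line), and E2F ticks lie mostly on the upper rows while CHR ticks lie mostly on the lower rows.

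The libraries held between 74063616 and 116206078 counts. RNA counts of the targeted gene, Irf8, were higher in the lines labelled IRF8 KO, with 442 and 347 in MC010, 32 and 10 in MC011, and at most 2 in any WT library. In the paper, PCR genotyping of genomic DNA found MC010 and MC011 to be IRF8 KO and MC654 and MC659 to be WT. Counts per gene cannot show whether reads come from a disrupted allele, and the lines are named by their labels. Of the cell type markers, the mesenchymal list, all 8 genes of which were in the table, summed to between 9509 and 10451 CPM (counts scaled to a normalized library size common to all libraries) in the IRF8 KO libraries and between 14401 and 16146 CPM in WT. That difference came from Fn1, fibronectin, which had 1142 to 2112 CPM in IRF8 KO and 7779 to 8132 CPM in WT, and without it the sums overlapped, at 7578 to 9287 CPM against 6622 to 8049 CPM. The sums of 4 hematopoietic markers in the table, of a list of 10, were 5.72 to 7.38 CPM against 9.67 to 11.4 CPM. Cd68, with 5.25 to 6.74 CPM against 8.25 to 10.1 CPM, and Csf1r were lower in all IRF8 KO libraries. Cd79a was higher in all IRF8 KO libraries than in any WT library. Ptprc was at 0 in both MC011 libraries but had 0.157 and 0.177 CPM in MC010, above all WT libraries. The sums of 5 epithelial markers of 6 ranged from 34.1 to 565 CPM in IRF8 KO and from 114 to 129 CPM in WT. MC010 was high in Krt8, a keratin, at 293 and 274 CPM against 1.31 and 1.28 CPM in MC011. Krt18 had the same order, with line means of 264 CPM in MC010 and 31.4 CPM in MC011. Epcam, Cdh1 and Krt14 had the reverse order, with line means of 0.34, 0.00874 and 0.0481 CPM in MC010. In MC011 these were 0.995, 0.311 and 0.891 CPM. The sums of 5 endothelial markers stayed at or below 1.01 CPM in all libraries. The part of these differences in the results below was not tested.

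The summed level of the members set MC010 apart from the other 3 lines. Over all 49 it was 10194 and 10256 CPM in the MC010 libraries, 8195 and 8310 in MC011, 8532 and 8636 in MC654, and 8646 and 8573 in MC659. MC010 thus stood above the other 6 libraries, and the sum over all members in MC011 stood below WT. Top2a alone had 665 and 680 CPM in MC011 against 863 to 971 CPM in WT. Without Top2a, the sum over the other members in library 2 of MC011 was no longer below all WT libraries. By role, MC011 was below all WT libraries for G1/S regulators and for licensing and fork genes. It was also below them for genes of chromosomes, spindle and checkpoint, but only with Top2a counted. For the entry into mitosis it was above them, at 1557 and 1568 CPM against 1479 to 1513 CPM. For deoxynucleotide supply it had 909 and 943 CPM, against 871 to 925 CPM in WT. The mean of MC010 was the highest of the 4 lines in 35 of the 49 genes, and in 30 both of its libraries exceeded all 6 others (25.1% of all genes tested did). MC011 had the lowest mean in 20, and in 18 both of its libraries were below all 6 others (17.8% of all genes tested). The shares of all genes tested with the highest mean in MC010 or the lowest in MC011 were not computed. In 12 members both MC010 libraries were above and both MC011 libraries below all 4 WT libraries, against 5.9% of all genes tested. These were Cdc25a, E2f1, E2f8, Mcm4, Mcm5, Mcm6, Tyms, Tk1, Top2a, Bub1, Kif23 and Cenpa. The opposite order, MC011 above and MC010 below WT, was found in 0 members and in 6.38% of all genes tested. The 2 libraries of a line lay close together, with no member differing between them by more than 0.26 on the log2 scale.

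**Figure D2:**
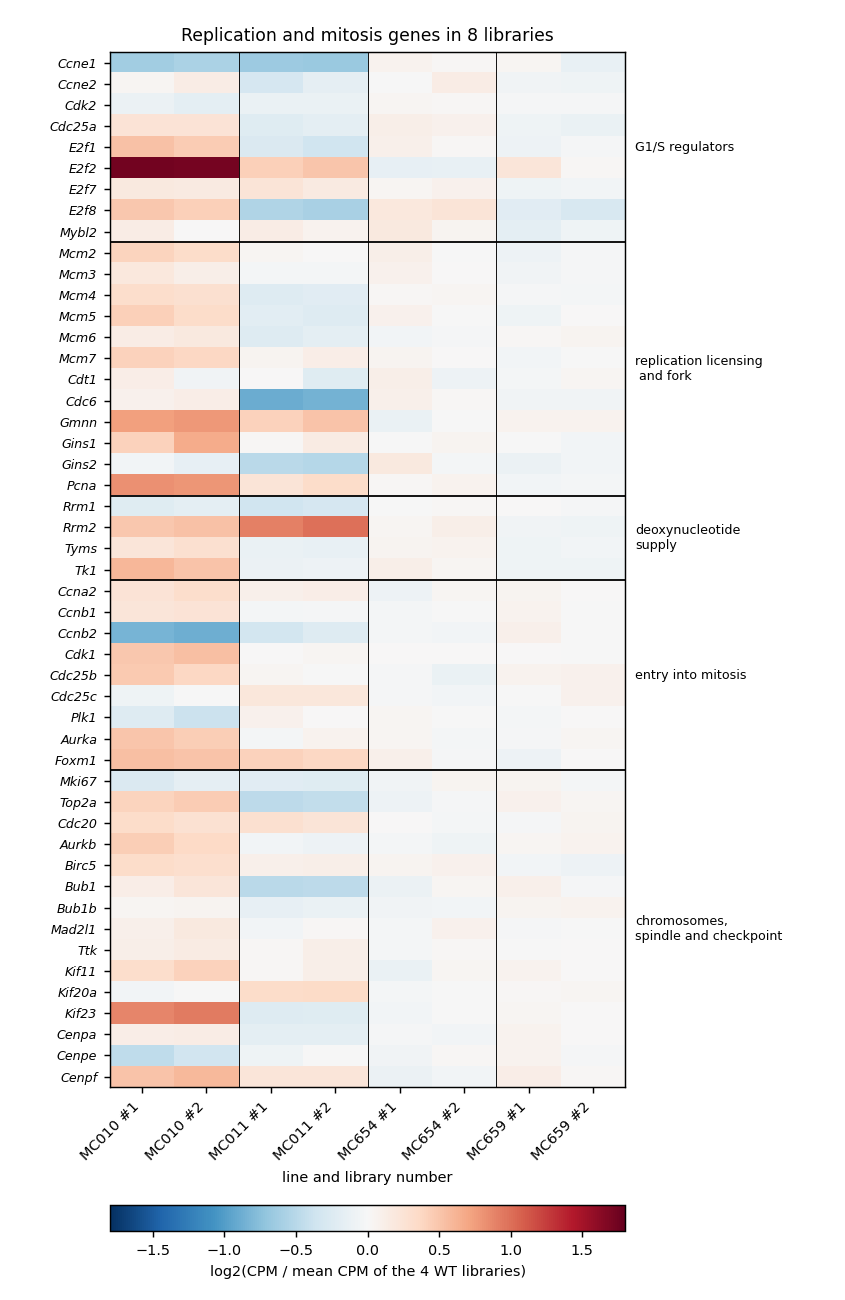
Level of each of the 49 genes (rows, grouped by role) in each of the 8 libraries (columns), as the log2 ratio of its CPM to the mean CPM of the 4 WT libraries. Red is higher and blue lower than WT, and the MC010 columns are mostly red, with E2f2 darkest, while Ccnb2 and Ccne1 are blue in all 4 IRF8 KO libraries.

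The levels of the members also differed among themselves. Per kilobase of exon, the median over the 8 libraries was highest for Pcna, the sliding clamp of DNA polymerases, at 122 CPM per kb, followed by Cdc20, an activator of the anaphase-promoting complex, at 113, and Top2a, the topoisomerase that untangles chromosomes, at 103. It was lowest for E2f2 at 1.46 CPM per kb, below the next lowest, Cdc25c, at 5.94. The gene with the largest change in the set was thus also the one with the lowest level, and with 5.13 to 18.9 CPM it was still far above the 3 counts per library taken as a floor.

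The labels were compared first, to ask whether the proliferation genes differed between IRF8 KO and WT lines. With 4 libraries against 4, genes were called at an adjusted p under 0.05 and a log2 fold change over 0.59 in size. Of the 49 members, 3 rose, E2f2, Rrm2 and Gmnn, against 13.7% of all genes tested, and 1 fell, Ccne1, against 8.72% of all genes tested. The share of members called in either direction was below the 22.5% over all genes. The median log2 fold change of the members was 0.10, beside 0.02 over all genes tested. Of the 49, 34 were above 0, as were 7858 of all 15153 genes tested. At the adjusted p alone, 9 members were higher (20.8% of all genes tested) and 4 lower (16.7%). All 4 IRF8 KO libraries were above all 4 WT libraries in 12 members (22.1% of all genes tested) and below them in 5 (20.5%), and the groups overlapped in 32. With the counts of each line summed, which leaves 2 lines against 2, edgeR called 0 members and 0 of all 16927 genes tested in either direction, with 5 members (21.6% of all genes tested) at an unadjusted p under 0.05. The p-values of single genes come from edgeR (quasi-likelihood test), adjusted over all 15153 genes by the Benjamini-Hochberg method.

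Among the G1/S regulators, cyclin E1 and E2F2 moved in opposite directions. Ccne1, the cyclin that activates Cdk2 at the G1/S step (chromosome 7 of mm10, 38097984 to 38107534), had 38.6 and 40.4 CPM in MC010, 38.0 and 37.6 in MC011, 62.4 and 61.0 in MC654, and 61.5 and 54.6 in MC659. The IRF8 KO libraries were all below the WT libraries and nearly level with each other. The means were 38.7 ± 1.23 CPM (SD, n = 4) and 59.9 ± 3.56 CPM (SD, n = 4), and the log2 fold change was -0.63 ± 0.06 (standard error, with an adjusted p = 0.000182 from edgeR). The median log2 fold change of all 1197 genes tested on chromosome 7 was -0.28, and that of 54 genes within 5 Mb of Ccne1 was -0.31. The part of that shift in the fall of Ccne1 was not tested.

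E2f2, an activating E2F factor (chromosome 4, 136172394 to 136196057), had 18.9 and 18.6 CPM in MC010, 7.62 and 8.0 in MC011, 5.13 and 5.15 in MC654, and 6.59 and 5.75 in MC659. The IRF8 KO libraries were all above WT, most of the distance being in MC010. The log2 fold change was 1.23 ± 0.34 (standard error, with an adjusted p = 0.0217 from edgeR), a 2.35-fold difference. With each library left out in turn it stayed between 1.01 and 1.42, but in only 3 of 8 such fits did it pass both thresholds. The adjusted p rose above 0.05 without either library of MC010, either of MC654, or library 2 of MC659 (edgeR, highest 0.0623). With both libraries of MC010 left out, the log2 fold change was 0.45 (adjusted p = 0.0162 from edgeR), short of the fold threshold. The other E2F genes did not follow. E2f7, a repressor of the family, was higher by 0.18 (adjusted p = 0.0314 from edgeR), short of the fold threshold, and E2f1 and E2f8 had log2 fold changes of 0.14 and 0.03 that did not pass (adjusted p = 0.622 and 0.938 from edgeR), with the IRF8 KO lines on opposite sides of WT.

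Of the licensing and fork genes, Gmnn was the member called. Gmnn (chromosome 13, 24751845 to 24761923) had 52.1 and 53.4 CPM in MC010, 41.5 and 44.4 in MC011, 28.7 and 30.9 in MC654, and 32.6 and 32.4 in MC659. All IRF8 KO libraries were above all WT libraries, with a log2 fold change of 0.62 ± 0.10 (standard error, with an adjusted p = 0.00171 from edgeR). Its fold change lay near the threshold, and 5 of the 8 fits with a library left out passed both. Those without either library of MC010 or without library 1 of MC654 gave 0.56 to 0.58. Pcna had 469.7 and 456 CPM in MC010, 310.3 and 332 in MC011, 267 and 276 in MC654, and 256 and 258 in MC659, a difference of 0.57 (standard error 0.14, adjusted p = 0.0142 from edgeR) just short of the fold threshold, which it passed with either library of MC011 left out (0.66 and 0.64). Mcm2, a subunit of the replicative helicase, had 289.6 and 275 CPM in MC010 and 225 and 221 in MC011. It had 235, 219, 207 and 217 CPM in the WT libraries, so that MC011 overlapped WT and MC010 did not (log2 fold change 0.20, adjusted p = 0.147 from edgeR).

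Deoxynucleotide supply showed a split within 1 enzyme. Ribonucleotide reductase makes deoxynucleotides from a large subunit, Rrm1, and a small subunit, Rrm2, whose level limits activity in S phase. Rrm2 (chromosome 12, 24708241 to 24714146) had 224 and 231 CPM in MC010, 299 and 318 in MC011, 163 and 172 in MC654, and 153 and 151 in MC659. It was higher in all IRF8 KO libraries and highest in MC011, against the order of most members, with a log2 fold change of 0.74 ± 0.12 (standard error, with an adjusted p = 0.00242 from edgeR). Rrm1 was lower by a log2 fold change of -0.26 ± 0.05 (standard error, with an adjusted p = 0.00636 from edgeR), with all IRF8 KO libraries below all WT libraries. Rrm1 lies on chromosome 7 like Ccne1, and less the median of that chromosome its value was 0.02. Tyms and Tk1, which supply thymidylate by synthesis and by salvage, had log2 fold changes of 0.08 and 0.27 and adjusted p-values of 0.62 and 0.26 from edgeR.

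No gene of the entry into mitosis or of chromosomes, spindle and checkpoint was called between the labels. The most common marker of proliferating cells, Mki67, was slightly lower in IRF8 KO. Its libraries had 470.0 and 503 CPM in MC010, 492 and 487 in MC011, 539 and 584 in MC654, and 585 and 551 in MC659. The log2 fold change was -0.21 ± 0.05 (standard error, with an adjusted p = 0.0133 from edgeR), with no overlap between the labels. The gene lies on chromosome 7, and less the median of that chromosome the value was 0.07. It did not pass with the line as a random block (limma-voom, adjusted p = 0.285). Foxm1, the factor that drives mitotic genes, was higher by 0.46 (adjusted p = 0.000955), as were Cenpf, a kinetochore protein, by 0.39 (adjusted p = 0.0184), Cdc20 by 0.28 (adjusted p = 0.00203) and Ccna2, cyclin A, by 0.19 (adjusted p = 0.0476), all from edgeR and all short of the fold threshold. The B-type cyclins parted. Ccnb1 had 286 and 292 CPM in MC010, 241 and 244 in MC011, 239.7 and 244 in MC654, and 258 and 244 in MC659, a log2 fold change of 0.11 (adjusted p = 0.307 from edgeR). Ccnb2 was lower by a log2 fold change of -0.54 ± 0.15 (standard error, with an adjusted p = 0.0255 from edgeR).

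The lines of 1 label were compared next, to ask how far lines with the same genotype label differ. Between MC010 and MC011, 9 members were called higher in MC010, against 15.7% of all genes tested, and 0 were called lower, against 16%. At an unadjusted p under 0.05, 41 members differed in either direction (66.1% of all genes tested did). DESeq2 likewise called 9 higher and 0 lower, beside 2330 and 2318 of all 15153 genes tested. At the adjusted p alone, 35 were higher and 6 lower, where 31.2% and 31.8% of all genes were. The median log2 difference of the members was 0.31, beside 0.00 over all genes. Of the 49, 39 were above 0, as were 7587 of all 15153 genes tested. After subtraction of the median of each gene's own chromosome, the members' median was 0.29 and 43 were above 0.

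The 9 genes came from 4 of the 5 roles, and 0 of 9 genes of the entry into mitosis were called. The G1/S regulators E2f2, E2f8 and E2f1 differed by 1.26, 1.02 and 0.80 on the log2 scale. E2f1, an activating factor, had 111 and 106 CPM in MC010, 64.3 and 60.3 in MC011, 82.1 and 78.2 in MC654, and 72.9 and 76.1 in MC659. E2f8, a repressor of the same family, had 73.7 and 70.7 CPM in MC010, 36.0 and 35.0 in MC011, 60.1 and 61.8 in MC654, and 45.5 and 43.1 in MC659. Activator and repressor thus had the same order of IRF8 KO lines around WT, though E2f8 also differed between the WT lines, by 0.46 (adjusted p = 3.13e-05 from edgeR).

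All 12 licensing and fork genes had more RNA in MC010 than in MC011, as did 7587 of all 15153 genes tested. Of the 12, 11 were higher at an adjusted p under 0.05, against 31.2% of all genes tested. MC010 had the highest mean of the 4 lines in 11, and the share of all genes with that order was not computed. Cdc6, the loader of the helicase (chromosome 11, 98907801 to 98923940), had 59.4 and 61.6 CPM in MC010, 30.3 and 31.4 in MC011, 60.1 and 57.4 in MC654, and 54.1 and 54.1 in MC659. For this gene MC011 was the line that stood apart, while MC010 and WT were nearly level. The difference of MC010 from MC011 was 0.97 (standard error 0.05, adjusted p = 4.46e-10 from edgeR), and against the WT lines it was 0.10 in MC010 and -0.87 in MC011. Mcm5, a helicase subunit, differed by 0.60 (adjusted p = 4.66e-08 from edgeR), at the threshold, with 311 and 292 CPM in MC010 and 202 and 197 in MC011 around 219 to 245 in WT. Without library 1 of MC010 or library 2 of MC011 it was 0.55 and 0.57, short of the threshold. Tk1, thymidine kinase, differed by 0.65 (adjusted p = 7.31e-09 from edgeR).

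Of the genes of chromosomes, spindle and checkpoint, Kif23, Top2a and Bub1 were called. Kif23, a kinesin of the central spindle needed for cytokinesis (chromosome 9, 61915905 to 61946774), had 273 and 284 CPM in MC010, 127 and 128 in MC011, 145 and 149 in MC654, and 153 and 149 in MC659. MC010 stood far above the other 6 libraries, which were close together. The difference from MC011 was 1.13 (standard error 0.04, adjusted p = 6.88e-12 from edgeR), a 2.19-fold difference, while 117 other genes within 5 Mb had a median of 0.04. Top2a had 1219.7 and 1269 CPM in MC010, 665 and 680.2 in MC011, 863 and 915 in MC654, and 971 and 946 in MC659, so that WT lay between the IRF8 KO lines. It differed by 0.89 (standard error 0.04, adjusted p = 1.03e-10 from edgeR), and its log2 fold change between the labels was 0.05 (adjusted p = 0.876 from edgeR). Bub1, a kinase of the spindle checkpoint, differed by 0.64 (adjusted p = 7.84e-08 from edgeR).

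**Figure D3:**
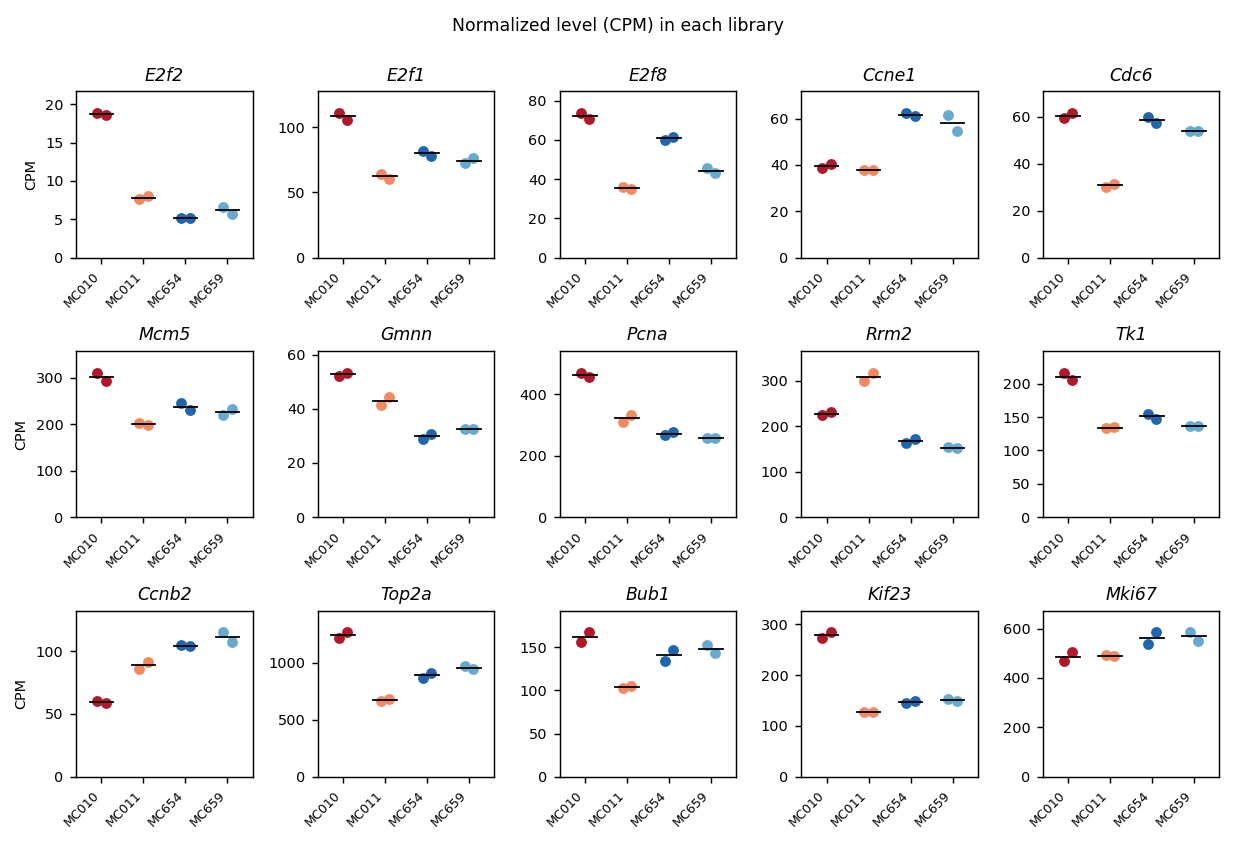
Normalized level in CPM (y axis, starting at 0) of 15 members in each library, with 1 point per library and a bar at the mean of the 2 libraries of a line. MC010 is highest for E2f2, Pcna and Kif23, the IRF8 KO lines lie on opposite sides of WT for E2f1 and Top2a, MC011 is highest for Rrm2 and lowest for Cdc6, and both IRF8 KO lines are below WT for Ccne1 and Ccnb2.

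Some members ran against this order. At the adjusted p alone, 6 were lower in MC010 than in MC011, and 5 of these belonged to late stages. Ccnb2 (chromosome 9, 70407692 to 70421547) had 60.2 and 58.8 CPM in MC010, 86.0 and 91.7 in MC011, 105 and 104 in MC654, and 115 and 107 in MC659. It was lowest in the line where Kif23, on the same chromosome and with CHR and CCAAT letters in its window as well, was highest. Its difference of MC010 from MC011 was -0.58 (standard error 0.05, adjusted p = 1.23e-07 from edgeR), just short of the fold threshold, and 84 other genes within 5 Mb had a median of 0.07. Plk1, Kif20a, Cenpe and Cdc25c differed by -0.35, -0.36, -0.36 and -0.24. Rrm2 differed by -0.44, beside a median of -0.48 over the 568 genes tested on chromosome 12 and of -0.46 over 34 other genes within 5 Mb. Chromosome 12 had the lowest median of the 19 chromosomes in that comparison, and its part in the order of Rrm2 was not tested. Kif20a and Cdc25c lie on chromosome 18, whose median was -0.36.

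Between the WT lines, MC654 and MC659, 0 members were called in either direction by edgeR, and 0 by DESeq2, with 16 at an unadjusted p under 0.05 (26.4% of all genes tested). Of all genes tested, 1.24% were higher and 3.71% lower in MC654. At the adjusted p alone, 5 members were higher (5.48% of all genes tested) and 1 lower (9.02%), with E2f8 the farthest apart. The median log2 difference of the members was 0.01.

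Each IRF8 KO line was then set against the WT lines. Both comparisons share the WT libraries, so the values are given side by side. In MC010, 4 members were higher past both thresholds (19.7% of all genes tested), namely E2f2 by 1.73, Kif23 by 0.90, Pcna by 0.81 and Gmnn by 0.76, and 2 were lower (17.4%), Ccnb2 with a log2 fold change of -0.85 and Ccne1 with -0.60. In MC011, 1 was higher (17.3% of all genes tested), Rrm2 by 0.95, and 2 were lower (13.4%), Cdc6 with -0.87 and Ccne1 with -0.66. The medians over the members were 0.25 in MC010 and -0.03 in MC011. At the adjusted p alone, 34 members were higher and 7 lower in MC010 (35.9% and 34.7% of all genes tested), and 12 were higher and 20 lower in MC011 (34.3% and 31% of all genes tested). Ccne1 was the member called with the same sign in both. Of the 49 members, 35 were called in none of the 5 comparisons, and the share of all genes tested for which this holds was not computed.

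**Figure D4:**
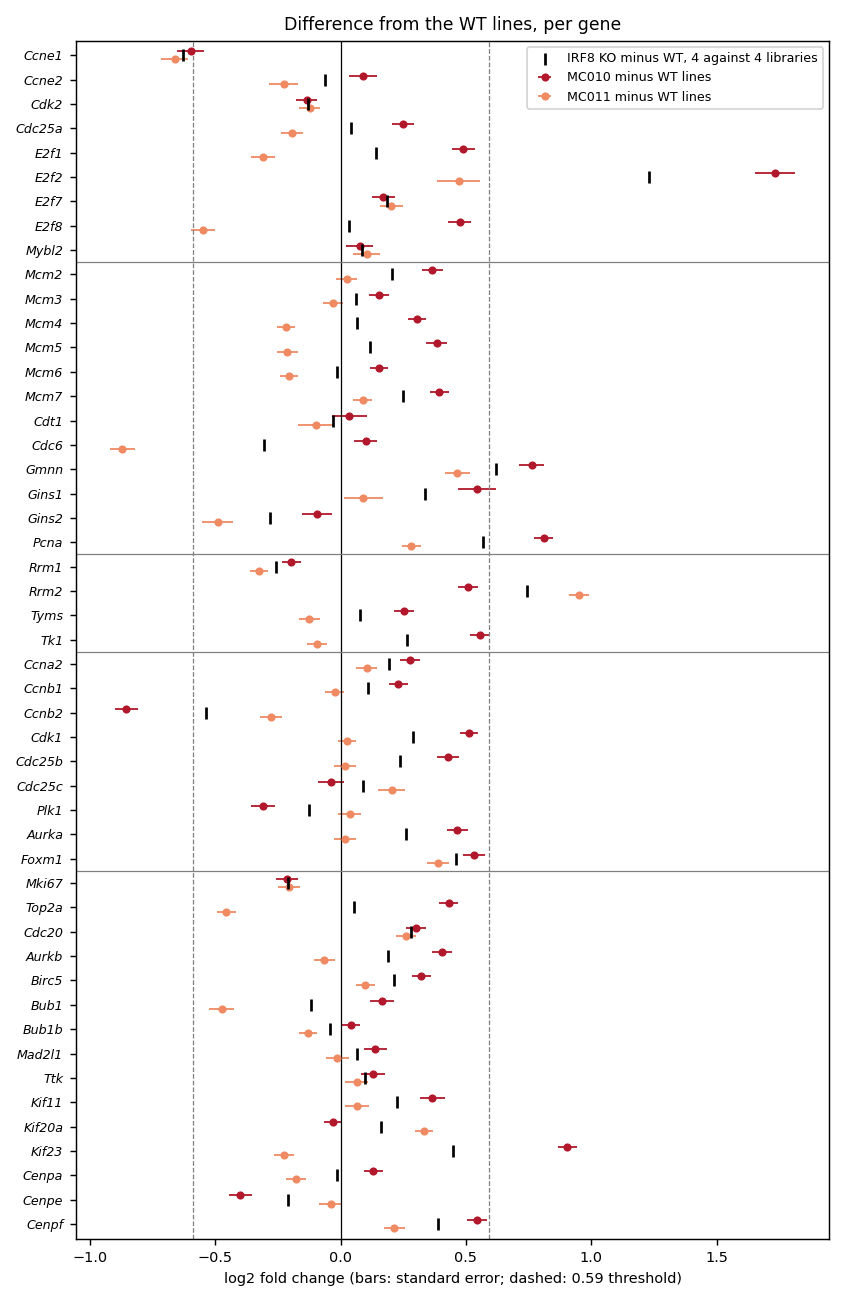
Log2 fold change of each member (rows, in the order of the roles) against the WT lines in MC010 (dark points) and MC011 (light points), with bars for the standard error, and between the labels (black ticks). Dashed lines mark the threshold of 0.59, and most dark points lie to the right of the light points, by 1.26 for E2f2 and 1.13 for Kif23, while Ccne1 lies to the left for both lines.

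Other genes of the cell cycle gave a background for the members. Of 120 such genes in 6 lists, 118 were tested. Between the labels, 3 were higher (13.7% of all genes tested), Pbk by 1.00, Ncaph2 by 0.61 and Anln by 0.59, and 2 were lower (8.72%), Atm with a log2 fold change of -0.71 and Orc3 with -0.61. Pbk, a mitotic kinase, had 137 and 148 CPM in MC010, 70.8 and 77.4 in MC011, and between 52.2 and 56.5 in WT, the order seen for Pcna. Anln, the actin-binding protein of the cleavage furrow, had 690.3 to 792 CPM in IRF8 KO and 475 to 509 in WT. Ncaph2, a subunit of condensin II, had 309.9 to 343 against 200.5 to 221 CPM. Orc3, a subunit of the origin recognition complex, had 48.4 to 55.3 against 73.5 to 84.7 CPM, with no overlap.

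Between MC010 and MC011, 16 of these 118 genes were higher and 3 lower in MC010, where 15.7% and 16% of all genes tested were, with a median of 0.22. The densest list was that of checkpoint kinases and repair, with 6 of 10 higher and 0 lower, a median of 0.70, and 9 of 10 at an unadjusted p under 0.05 (66.1% of all genes tested). Those called included Atr by 1.14, Brca1 by 0.99, Atm by 0.77, Fancd2 by 0.74 and Brca2 by 0.65. Atm, the kinase that responds to DNA breaks, had 88.2 and 96 CPM in MC010, 53.8 and 54.2 in MC011, and 111 to 125 in WT, so that it was lowest in MC011 and below WT in MC010 as well. Of the origin recognition and replisome list, 3 of 29 were called, Pola2, Cdc45 and Mcm10, and 0 were lower.

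Of 17 CDK inhibitors, pocket proteins and MuvB genes, among them brakes of the cycle, 0 were called between the labels by edgeR, with 6 at an unadjusted p under 0.05 (46.9% of all genes tested). Between MC010 and MC011, 2 were called higher and 1 lower, where 15.7% and 16% of all genes tested were. At the adjusted p alone, 11 were higher and 4 lower (31.2% and 31.8% of all genes tested). The median was 0.20, near that of all 118 genes. Cdkn1a, the p21 inhibitor and a p53 target, had 31.2 and 26.2 CPM in MC010, 7.08 and 7.46 in MC011, 9.73 and 9.63 in MC654, and 8.73 and 8.24 in MC659. MC010, with the highest sum of the proliferation genes, was thus also the line with the most Cdkn1a RNA, by 1.98 on the log2 scale over MC011 (adjusted p = 5.78e-11 from edgeR). Cdkn1b, the p27 inhibitor, had the reverse order, with 43.4 and 48.2 CPM in MC010, 69.9 and 71.8 in MC011, and 60.6 to 70.7 in WT (log2 difference -0.63, adjusted p = 1.3e-07 from edgeR). The pocket protein genes Rb1 and Rbl1, E2f4, a factor that represses with them, and Wee1, the kinase that holds back Cdk1, had log2 fold changes between the labels of 0.21, 0.20, -0.17 and -0.02. None of these passed.
Trp53, the gene for p53, had 352 and 337 CPM in MC010, 169.1 and 160.9 in MC011, and 29.1 to 31.9 in WT, so that both IRF8 KO lines were above WT while Cdkn1a was above it in MC010 alone.

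Exons of 13 members overlap a gene on the other strand and those of 3 a gene on the same strand. The largest overlap was in Gins2, 67.3% of whose exon bases lie in Gse1 on the other strand, and whether counting used the strand is not stated. Ccnb1, Ccnb2, Pcna and Tyms have named pseudogenes, whose reads could be shared with them.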

How the data were processed

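Stranded mRNA libraries from 4 MCA-induced lines were sequenced by the authors, who aligned reads to mm10 (GRCm38.p6) with STAR and counted them per gene with HTSeq. The submitters' processing notes give STAR 2.7.3a and HTSeq 0.11.2, other versions than the paper. The deposited table holds raw counts per gene and library, and a signal that the authors made by dividing counts by 1 size factor per library with DESeq2. It also holds the authors' own comparison (fold changes and p-values), which was not used. Genes on the sex chromosomes were not analysed here. The value of 1 other cell cycle gene that was called is not reported here.

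Raw counts were analysed with edgeR 4.0.16 in R 4.3.3, with filterByExpr, TMM and the robust quasi-likelihood test, with Benjamini-Hochberg adjustment of p-values over 15153 genes. One fit compared the labels and another had 1 group per line. Genes were called at an adjusted p under 0.05 and a log2 fold change over 0.59 in size, the study's thresholds. Standard errors were derived from the fold change and the F statistic. The fits were tested on simulated data. For the label fit, the simulated libraries were drawn independently, with no difference between lines of 1 label. That test cannot show how the label fit behaves with 2 lines per label. CPM used TMM library sizes. Exon lengths came from GENCODE M21, and promoter sequences from RefSeq (GRCm38.p6). The 2 libraries of each line were compared and differed by more than sampling noise. Libraries held 74063616 to 116206078 counts, so 3 counts correspond to between 0.0258 and 0.0405 CPM, which covers counting error only.

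The members, the lists of other cell cycle genes and the tests were chosen with earlier results of these data known. By rule, values per library were given for Mki67, Top2a, Pcna, Ccnb1, Ccne1, Mcm2 and E2f1, for the 5 members with the largest change in each direction called between the labels, and for the 5 largest called between MC010 and MC011. Of the other cell cycle genes, those of each list called with the 2 largest changes per direction between the labels were followed, and Cdkn1a, Cdkn1b, Rb1, Rbl1, E2f4 and Wee1. Values of Ccnb2, Mcm5, Tk1 and Bub1, the other genes named and the printed promoters were chosen after the values were seen. The library numbers were not taken to pair the libraries. Deviations of same-numbered libraries correlated at 0.18 to 0.27 among MC010, MC011 and MC654, and at -0.18 to -0.11 between these lines and MC659. With 2 libraries per line, these values cannot show whether the numbers pair libraries. Alternatives were DESeq2 1.42.0, upper-quartile scaling, all genes of the table without the count filter, adjusted p alone, sums per line, limma-voom (limma 3.58.1) with the line as a random block, other blocks, and libraries or lines left out.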

Additional observations from a re-analysis of the deposited data

Results flagged for a closer look

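For 9 members and for 4 of the 11 other cell cycle genes followed by rule, the effect against the WT lines differed between the IRF8 KO lines (edgeR, 1 group per line, adjusted p under 0.05 and a log2 difference over 0.59 in size). The WT lines cancel in this difference, so it is the comparison of MC010 with MC011 given above and no further test. The effect in MC010 exceeded that in MC011 by 1.26 for E2f2, 1.13 for Kif23, 1.02 for E2f8, 0.97 for Cdc6, 0.89 for Top2a, 0.80 for E2f1, 0.65 for Tk1, 0.64 for Bub1 and 0.60 for Mcm5. Among those other genes it was 1.98 for Cdkn1a, 0.95 for Pbk, 0.77 for Atm and -0.63 for Cdkn1b. In 120 groups of 4 libraries of 1 label, none had a library far from the other 3.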

How the results depend on the processing

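Under DESeq2, no filter on low counts and upper-quartile scaling, the numbers of called members stayed within 1.5 times in all 5 comparisons. With a replicate block for the library number, 3 members were higher and 1 lower between the labels, beside 1917 and 1189 of all 15153 genes tested. Between MC010 and MC011 the block gave 9 and 0 members, beside 2376 and 2410 of all genes tested. No call on a followed member changed. Of the other cell cycle genes, Anln had a log2 fold change of 0.58993 with the block and of 0.59005 without it, so that 2 instead of 3 were higher between the labels. With limma-voom and the line as a random block, 2 members were higher and 1 lower between the labels, E2f2 no longer passing (adjusted p = 0.0921). Of all 15153 genes tested, 1047 were higher and 839 lower in that fit. With the counts of each line summed, 0 members, 0 other cell cycle genes and 0 of all 16927 genes tested were called in either direction, where the adjusted p was 0.111 for Ccne1, 0.153 for Rrm2, 0.157 for Gmnn and 0.274 for E2f2.

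At the adjusted p alone, higher and lower members numbered 9 and 4 between the labels, 35 and 6 for MC010 against MC011, 5 and 1 for MC654 against MC659, 34 and 7 for MC010 against WT, and 12 and 20 for MC011 against WT. Between the labels, 1 member was higher with MC010, MC654 or MC659 left out, and the lower members numbered 2 with MC010 or MC011 left out and 0 with MC654 left out. With MC011 left out, Rrm2 had a log2 fold change of 0.50, and with MC659 left out its adjusted p was 0.0592. Of the other cell cycle genes, 0 were higher and 7 lower with MC010 left out, 15 higher with MC011 left out, and 0 lower with MC659 left out. Of all genes tested, 2679 were higher and 2056 lower of 16095 with MC010 left out, and 3159 and 2668 of 16072 with MC011 left out. They numbered 1222 and 857 of 16429 with MC654 left out, and 1185 and 699 of 16295 with MC659 left out.

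With each library left out in turn, members higher between the labels numbered 1 to 4 and lower 1 to 2. Between MC010 and MC011 they numbered 8 to 9 and 0 to 1, for MC010 against WT 4 to 5 and 1 to 2, and for MC011 against WT 1 and 2. Other cell cycle genes numbered 1 to 8 and 0 to 2 between the labels. Of all 15382 to 15563 genes tested in these fits, 2220 to 2448 were higher and 2235 to 2496 lower between MC010 and MC011. Between the labels, 1812 to 2222 of all genes were higher and 1080 to 1434 lower. The smallest numbers of higher members came without either library of MC010 or library 1 of MC654, and the 2 lower members without either library of MC011. Between MC010 and MC011, 1 lower member was called without library 1 of MC010 or of MC011, and for MC010 against WT 1 lower without library 1 of MC010 or of MC659. Of the other cell cycle genes, 1 was higher without library 1 of MC010, 8 and 7 without library 1 or 2 of MC011, and 0 and 1 lower without library 1 or 2 of MC659. Values near 0 between the labels changed sign, Top2a ranging from -0.11 to 0.19, E2f1 from -0.00902 to 0.28 and E2f8 from -0.16 to 0.19, and under limma-voom Top2a was -0.0138 and E2f8 -0.0164. The causes were not tested, and leaving out libraries or lines also lowers the number of samples. Depth did not limit the members, which all had at least 428 counts in every library.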
